A study of Mus musculus with 6 samples.

Results

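The genes described here encode the inducible parts of the proteasome. They are Psmb8, Psmb9 and Psmb10, the catalytic subunits of the immunoproteasome, and Psme1 and Psme2, the subunits of the PA28 activator. They were taken by symbol, and 5 of 5 were present among the 11452 genes of the deposited table and among the 11269 genes tested. They were compared with Psmb5, Psmb6 and Psmb7, the constitutive catalytic subunits whose places Psmb8, Psmb9 and Psmb10 take.

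The proteasome is a barrel of stacked rings that cuts ubiquitin-tagged proteins into peptides. Interferon gamma and other inflammatory signals induce Psmb8 (subunit β5i), Psmb9 (β1i) and Psmb10 (β2i), which are built into new barrels in place of Psmb5 (β5), Psmb6 (β1) and Psmb7 (β2). PA28, a ring of the Psme1 (PA28α) and Psme2 (PA28β) proteins, caps the barrel and opens its gate. The peptides made this way are carried into the endoplasmic reticulum by Tap1 and Tap2 and shown on MHC class I molecules, so these genes bear on how visible a tumour cell is to T cells.

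RNA was sequenced from pools of 4T1 cells, an established mouse mammary tumour line, that carried a knockout of Myo1e (KO, 3 libraries) or were wild type for it (WT, 3 libraries). Myo1e encodes myosin 1e, a motor protein that binds membranes and actin. The design text speaks of biological replicates, and the labels used here do not say how the knockout or the pools were made. Columns of the table are numbered 1, 2 and 4 in each genotype while the sample titles run from pool 1 to pool 3, so libraries are named by genotype and column number. The labels used here do not say what the numbers stand for.

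The libraries held 17772003 to 19988206 reads over the genes of the table. KO 4 and WT 4 stood apart from the other 4 libraries, at 48.4 and 49.2 on a first principal component that held 83.8% of the variance, against -27.7 to -20.4. Myo1e transcripts were present in every KO library, at 6.87, 6.81 and 6.81 log2 CPM in KO 1, KO 2 and KO 4, against 7.09, 7.02 and 6.91 in WT 1, WT 2 and WT 4. Of 10 epithelial markers 9 were in the table, and all 9 had a lower mean in KO than in WT, like the members, against 52.9% of all tested genes. Within all 3 library numbers 2 of the 9 were lower, against 5 of 5 members and 17% of all tested genes. The markers had a median difference of -0.17, with 0 past the threshold. Their part in the members' differences was not tested. Krt19 differed by -0.26 (SE 0.16), Epcam by -0.19 (SE 0.20) and Krt7 by -0.17 (SE 0.29), and the keratin gene Krt14 was at 4.96 to 6.07 log2 CPM in KO and 4.54 to 6.67 in WT. A list of 19 genes, made of leukocyte markers and 1 thymic proteasome subunit gene, was chosen because leukocytes make immunoproteasome without stimulation. Of these genes, 1 was in the table. It was Cd68, at 2.19 to 2.99 log2 CPM in KO and 2.01 to 2.81 in WT, and Ptprc, which marks all leukocytes, was not listed. The table holds only genes at or above log2 CPM 0 in at least 2 libraries.

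Psmb8 and Psmb9 lie beside the peptide transporter genes in the MHC region of chromosome 17 (GRCm38), in the order Psmb9 (34181987 to 34187764, minus strand), Tap1 (34187553 to 34197225, plus strand), Psmb8 (34197721 to 34201454, plus strand) and Tap2 (34203527 to 34216321, plus strand). The RefSeq start sites of Psmb9 and Tap1 point away from each other and are 226 bases apart. Psme1 (55578123 to 55581529, plus strand) and Psme2 (55587441 to 55591113, minus strand) are neighbours on chromosome 14, and Psmb10 is on chromosome 8 (105935735 to 105938444, minus strand).

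Promoter windows are shown for the start-site pair of Psmb9 and Tap1 and for the members with a match to an interferon-response motif, since Psmb9 and its neighbour Tap1 were both higher in the libraries numbered 4. Each window holds 250 bases before and 50 after the RefSeq start site (build GRCm38.p6). All 5 members had a window, and Psme2 had a further window. The windows shown for Psmb9, Psmb8 and Psme1 lie inside the gene spans given above, since their RefSeq start sites lie downstream of the annotated gene starts. They therefore do not cover the sequence before those outermost starts. In the Psmb9 window (chr17:34187281-34187580, minus strand) capitals mark the bases between the start sites of Tap1 and Psmb9. In the Psmb8 window (chr17:34197945-34198244, plus strand) and the Psme1 window (chr14:55578244-55578543, plus strand) capitals mark the motif match.
Psmb9: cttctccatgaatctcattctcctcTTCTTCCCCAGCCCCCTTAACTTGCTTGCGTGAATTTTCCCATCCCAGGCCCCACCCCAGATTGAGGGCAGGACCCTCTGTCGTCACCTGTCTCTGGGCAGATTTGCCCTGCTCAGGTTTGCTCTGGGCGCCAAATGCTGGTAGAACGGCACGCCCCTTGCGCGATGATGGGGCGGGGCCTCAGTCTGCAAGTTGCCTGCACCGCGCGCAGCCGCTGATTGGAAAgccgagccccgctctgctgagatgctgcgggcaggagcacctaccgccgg
Psmb8: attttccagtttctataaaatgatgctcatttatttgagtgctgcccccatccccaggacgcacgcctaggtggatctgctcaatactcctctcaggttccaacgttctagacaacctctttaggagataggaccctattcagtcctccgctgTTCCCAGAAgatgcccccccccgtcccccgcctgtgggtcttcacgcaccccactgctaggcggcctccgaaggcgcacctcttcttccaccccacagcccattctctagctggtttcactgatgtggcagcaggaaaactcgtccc
Psme1: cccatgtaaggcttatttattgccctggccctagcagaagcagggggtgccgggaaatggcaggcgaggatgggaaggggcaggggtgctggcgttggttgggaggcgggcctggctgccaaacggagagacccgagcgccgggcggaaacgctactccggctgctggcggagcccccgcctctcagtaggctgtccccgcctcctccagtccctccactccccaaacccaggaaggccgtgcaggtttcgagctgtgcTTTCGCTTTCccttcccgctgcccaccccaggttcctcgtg

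The motifs searched on both strands were the gamma-activated site TTCNNNGAA and the interferon-stimulated response element in the form GAAANNGAAA. The Psmb8 window held 1 gamma-activated site, starting 97 bases before the RefSeq start site. The Psme1 window held 1 response element, starting 9 bases after the RefSeq start site. Neither motif was found in the windows of Psmb9, Psmb10 and Psme2, nor in those of Psmb5 and Psmb6. Among all 32851 windows of the same length, 8.3% held the first motif and 3.44% the second. A match is a description of letters and shows no binding.

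All 5 members were lower in KO than in WT on average, and each was lower within all 3 library numbers. The differences ran from -0.92 for Psmb9 to -0.30 for Psme2 on the log2 CPM scale, with a median of -0.33, where the median over all 11269 tested genes was -0.01. None of the 5 passed the threshold in limma's test. A mean below WT was seen in 52.9% of tested genes, and a lower value within 3 of 3 numbers in 17% of them. The pairing by number comes from the data, and Psme2 was higher in KO 1 than in WT 2 (6.15 against 6.09 log2 CPM). RNA of a culture cannot show whether fewer cells express a gene or each cell holds less of it.

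**Figure D1:**
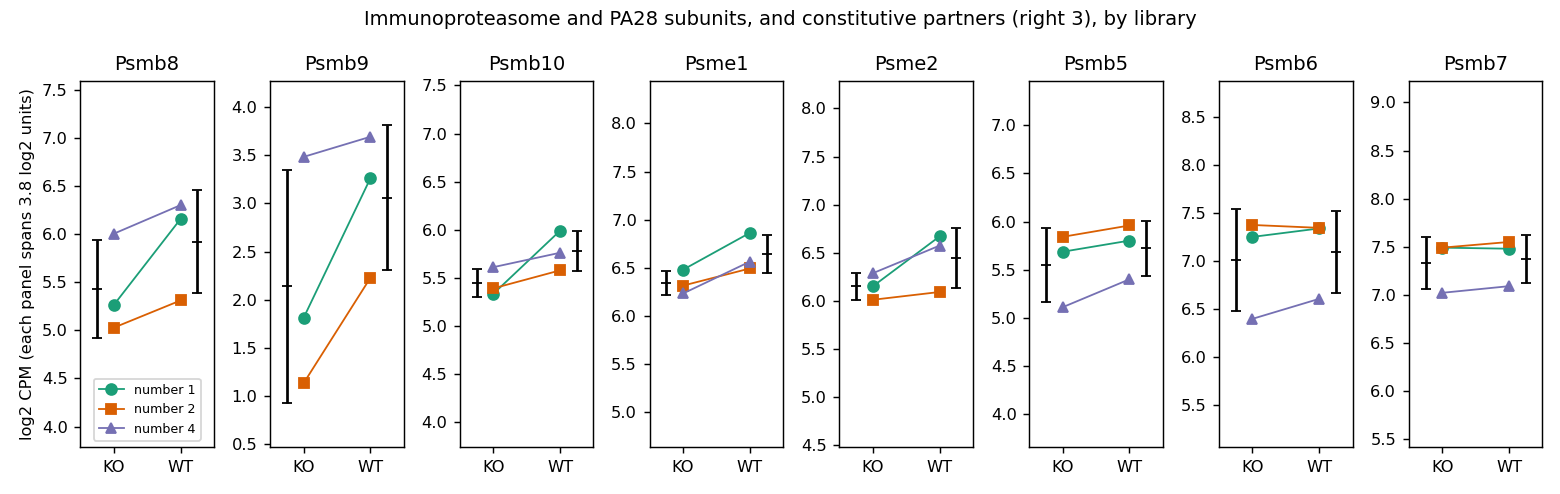
Level of the 5 members and the 3 constitutive partners in each library. The vertical axis is log2 CPM and spans the same 3.8 units in every panel, lines join KO and WT libraries of the same number, and black marks are the mean and SD over 3 libraries. The member lines run upwards to WT in all 5 panels, and the libraries numbered 4 are the highest for Psmb9 and the lowest for Psmb5, Psmb6 and Psmb7.

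Psmb8, the chymotrypsin-like subunit, was at 5.26, 5.03 and 6.002 log2 CPM in KO 1, KO 2 and KO 4, against 6.15, 5.31 and 6.30 in WT 1, WT 2 and WT 4. The genotypes overlapped, because KO 4 lay above WT 2. The mean was 5.43 ± 0.51 in KO and 5.92 ± 0.53 in WT (SD, n = 3), a difference of -0.49 (SE 0.36), or 71.1% of the WT level. Within numbers 1, 2 and 4 the difference was -0.89, -0.28 and -0.30, so the pair numbered 1 differed most. The mean difference was -0.29 without KO 2, -0.30 without WT 4, -0.78 without KO 4 and -0.80 without WT 2.

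Psmb9, the subunit that replaces Psmb6, was the weakest member and varied most. It was at 1.81, 1.13 and 3.48 log2 CPM in KO 1, KO 2 and KO 4, against 3.26, 2.23 and 3.69 in WT 1, WT 2 and WT 4. These values rest on 67, 37 and 232 reads in the KO libraries and on 184, 86 and 241 reads in the WT libraries. For the lowest, KO 2, the exact 95% Poisson interval is 26.1 to 51.0 reads, against 68.8 to 106 for the 86 reads of WT 2, and it covers counting error only. The mean was 2.14 ± 1.21 in KO and 3.06 ± 0.75 in WT (SD, n = 3), a difference of -0.92 (SE 0.68). It was -0.41 without KO 2, -0.60 without WT 4 and -1.59 without KO 4. Within numbers 1, 2 and 4 it was -1.45, -1.09 and -0.21, so the pair numbered 4, where both libraries were highest, differed least. Psmb9 and Tap1 overlap by 212 bases on opposite strands, and no source used here states whether the counting used strand, so their reads may not be fully separated.

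Psmb10, the trypsin-like subunit, was at 5.34, 5.39 and 5.61 log2 CPM in KO 1, KO 2 and KO 4, against 5.99, 5.58 and 5.76 in WT 1, WT 2 and WT 4. The groups overlapped only in that KO 4 exceeded WT 2. The mean was 5.45 ± 0.15 in KO and 5.78 ± 0.21 in WT (SD, n = 3), with a difference of -0.33 (SE 0.15). Within numbers 1, 2 and 4 it was -0.66, -0.19 and -0.15. Annotated genes on the opposite strand cover the whole of Psmb10 (Gm16156) and 2139 bases of Psmb8 (Gm20496). Neither is in the table. These overlaps are of whole gene spans, introns included, and whether exons are shared was not tested. Where exons are shared, reads of these genes cannot be told apart from those of the members without knowledge of strand.

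For the activator genes the differences were about as large as for Psmb10. Psme1 was at 6.48, 6.32 and 6.23 log2 CPM in KO 1, KO 2 and KO 4, against 6.86, 6.49 and 6.56 in WT 1, WT 2 and WT 4. It was the 1 member whose genotypes did not overlap, with KO 1 just below WT 2. Every KO library lay below every WT library in 1.59% of tested genes. The difference was -0.30 (SE 0.14), and -0.38, -0.18 and -0.33 within numbers 1, 2 and 4. Psme2 was at 6.15, 6.01 and 6.29 log2 CPM in KO 1, KO 2 and KO 4, against 6.67, 6.09 and 6.58 in WT 1, WT 2 and WT 4. KO 1 and KO 4 lay above WT 2, so the groups overlapped. Its difference was -0.30 (SE 0.18), and -0.52, -0.08 and -0.29 within numbers 1, 2 and 4. Without WT 1 the difference was -0.19 for Psme1 and -0.18 for Psme2, and without WT 2 it was -0.47 for Psme2.

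Psme2 has a near copy, Psme2b, on chromosome 11. Of the 913 windows of 50 bases in the Psme2 transcript, 541 (59.3%) also occur in the Psme2b transcript, so reads may be shared between them or left uncounted. Psme2b was listed with 12 to 39 reads in KO and 26 to 39 in WT, against 1117 to 1629 for Psme2 in KO and 1269 to 1970 in WT. Psmb8, Psmb9 and Psmb10 shared 0 such windows with Psmb5, Psmb6 and Psmb7.

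In limma's test across all genes, 0 of 5 members passed the threshold of an adjusted p of 0.05 (Benjamini-Hochberg, each adjusted p 0.9999), against 0% of all tested genes in either direction. At an unadjusted p under 0.05, 0 of 5 members were lower, against 0.106% of tested genes. That fit leaves the difference between library numbers in its error. With the library number as a replicate block, the SE was 0.11 for Psmb8, 0.21 for Psmb9, 0.09 for Psmb10, 0.06 for Psme1 and 0.08 for Psme2. All 5 members then had an unadjusted p under 0.05, against 5.08% of tested genes that were lower at that level. In either direction, 1117 of 11269 tested genes reached it. Also in either direction, 9 of 16 interferon-induced effector genes, 8 of 13 peptide genes, 6 of 20 interferon signalling genes and 3 of 9 epithelial markers reached it. Of the 8 peptide genes, Lnpep was higher in KO and the rest were lower. The counts that follow are in either direction too. In the rest of the proteasome it was 1 of 3 partners (Psmb5), 3 of 11 other 20S genes, 3 of 18 genes of the 19S cap and 0 of 11 other activators and assembly factors. No member passed after adjustment over all genes, with adjusted p of 0.24 for Psmb8, 0.26 for Psmb9, 0.31 for Psmb10, 0.19 for Psme1 and 0.28 for Psme2. The block fit called 0.00887% of tested genes lower, which is 1 gene, and 0% higher.

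**Figure D2:**
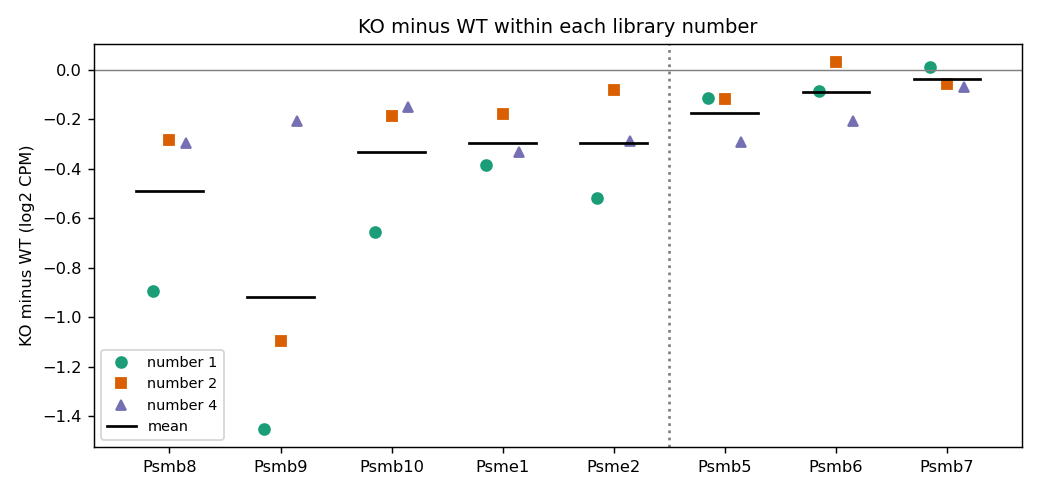
KO minus WT within each library number for the members (left of the dotted line) and the constitutive partners (right). The vertical axis is the difference in log2 CPM, symbols are library numbers and bars are the mean of 3. All member points lie below 0, from -1.45 to -0.08, whereas the partner points lie between -0.29 and 0.03.

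The constitutive partners had KO minus WT differences nearer to 0 than any member. Psmb5 was at 5.69, 5.84 and 5.11 log2 CPM in KO 1, KO 2 and KO 4, against 5.80, 5.96 and 5.40 in WT 1, WT 2 and WT 4, a difference of -0.17 (SE 0.24). Psmb6 was at 7.25, 7.38 and 6.40 in the same KO libraries, against 7.34, 7.35 and 6.61 in WT, a difference of -0.09 (SE 0.33). Psmb7 was at 7.49, 7.49 and 7.02 in KO, against 7.48, 7.55 and 7.09 in WT, a difference of -0.04 (SE 0.19). The gene span of Psmb7, introns included, overlaps that of Nek6 on the opposite strand by 6571 bases. For all 3 partners the KO and WT ranges overlapped. Psmb5 was lower in KO within all 3 library numbers, and Psmb6 and Psmb7 within 2 of 3.

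Per kilobase of transcript, which allows levels of different genes to be set side by side, Psmb9 averaged 4.12 ± 3.59 CPM per kb in KO and 6.66 ± 3.07 in WT (SD, n = 3). Psmb6, which it replaces, averaged 168 ± 54.7 in KO and 176 ± 46.8 in WT. Psmb8 averaged 27.6 ± 10.3 in KO and 38.8 ± 12.7 in WT, and its partner Psmb5 53.1 ± 13.2 in KO and 59.4 ± 11.4 in WT. Psmb10 averaged 33.4 ± 3.47 in KO and 42.1 ± 6.07 in WT, and its partner Psmb7 141 ± 24.9 in KO and 144 ± 23.5 in WT. The activator genes were nearly equal to each other, with Psme1 at 73.1 ± 6.46 in KO and 90.2 ± 12.7 in WT, and Psme2 at 74.1 ± 7.08 in KO and 92.0 ± 18.6 in WT. Among the members the order of the means in both genotypes ran from Psme2 and Psme1, which did not differ beyond their spread, over Psmb10 and Psmb8, whose ranges overlapped, to Psmb9, whose highest library lay below the lowest library of every other member.

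The ratio of each inducible subunit to its constitutive partner shows the balance within a library, and any scaling factor common to both genes drops out of it. Psmb8 to Psmb5, per length, was 0.411, 0.314 and 1.025 in KO 1, KO 2 and KO 4, against 0.705, 0.352 and 1.03 in WT 1, WT 2 and WT 4. Psmb9 to Psmb6 was 0.0136, 0.00779 and 0.0782 in the KO libraries, against 0.0349, 0.0170 and 0.0782 in WT. Psmb10 to Psmb7 was 0.199, 0.207 and 0.333 in the KO libraries, against 0.315, 0.226 and 0.352 in WT. In each ratio the KO library was below the WT library of its number, and the genotypes overlapped.

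On the log2 scale the KO minus WT difference of the Psmb8 to Psmb5 ratio was -0.78, -0.17 and -0.01 within numbers 1, 2 and 4. For Psmb9 to Psmb6 it was -1.36, -1.13 and -0.0010, and for Psmb10 to Psmb7 it was -0.67, -0.13 and -0.08. In the pair numbered 4 the first and second ratios were thus nearly equal in KO and WT, because Psmb5 and Psmb6 were also lower in KO 4 than in WT 4, by -0.29 and -0.21, like Psmb8 (-0.30) and Psmb9 (-0.21). In the pair numbered 1 the partners differed by -0.12, -0.09 and 0.01, so there the ratios carry the members' own differences. Over all 3 libraries a genotype the mean differences were -0.32, -0.83 and -0.29. Two-sided exact permutation tests of 3 against 3 libraries gave p = 0.70, 0.50 and 0.30, each 0.70 after adjustment over the 3 ratios, where the smallest p such a test can give is 0.1. Without KO 2 or without WT 4 the mean difference of the Psmb8 to Psmb5 ratio was 0.03, since the library numbers are then in unequal shares of the genotypes. In the same way the Psmb9 to Psmb6 difference was -0.14 without KO 2, -0.27 without WT 4, -0.54 without KO 1, -1.37 without WT 2 and -1.81 without KO 4. The Psmb10 to Psmb7 difference was -0.16 without KO 1 or WT 4, -0.19 without KO 2, -0.48 without WT 2 and -0.53 without KO 4.

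**Figure D3:**
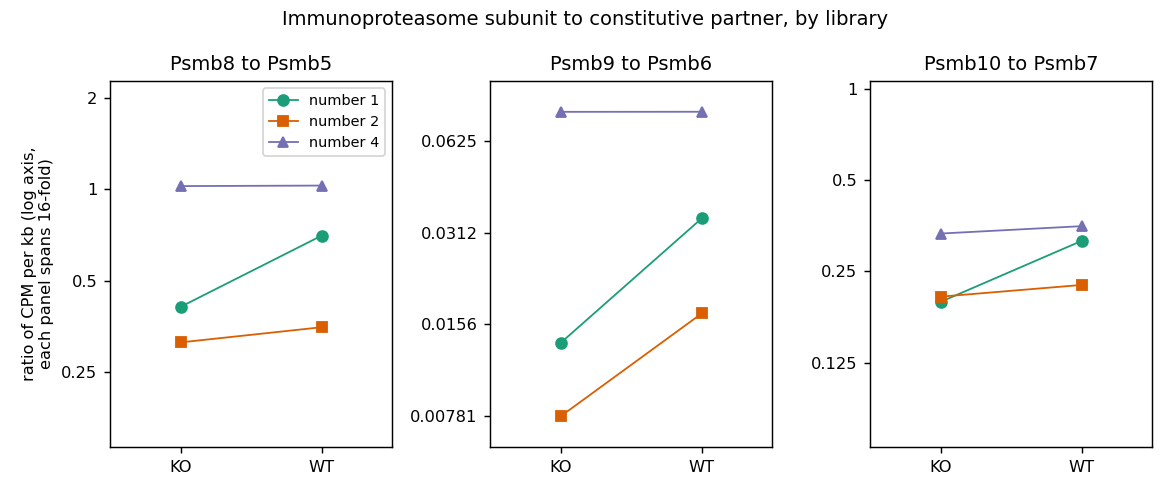
Ratio of each immunoproteasome subunit to its constitutive partner, as CPM per kb of one over the other, on a log axis that spans 16-fold in each panel. Lines join KO and WT libraries of the same number; they are nearly level for number 4 in the Psmb8 and Psmb9 panels and steepest for number 1.

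In the libraries numbered 4, Psmb8 and Psmb9 were higher than in those numbered 1 and 2, while the constitutive subunits were lower. Psmb8 was 0.86 higher in KO 4 than in the mean of KO 1 and KO 2, and 0.57 higher in WT 4 than in WT 1 and WT 2, on the log2 CPM scale. Psmb9 was 2.01 higher within KO and 0.95 higher within WT. Both passed limma's test with genotype as a covariate, Psmb8 with a difference of 0.71 (SE 0.19, adjusted p = 0.0097) and Psmb9 with 1.48 (SE 0.33, adjusted p = 0.0035). This fit counts KO 4 and WT 4 as separate libraries. If libraries of a number share a source, they are 1 number set against 2 others, and the SE and p of every number 4 comparison given here are then too small. Psmb9 was higher in both libraries numbered 4 than in any other, whereas for Psmb8 WT 1 lay between KO 4 and WT 4.

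Psmb10 and the activator genes did not pass that test. Psmb10 differed by 0.25 within KO and -0.02 within WT, Psme2 by 0.21 and 0.19, and Psme1 by -0.16 and -0.11. Thus 2 of 5 members were called higher and 0 lower, where 31.8% of all tested genes were called higher and 33.8% lower. One member, Psmb9, had both libraries numbered 4 above the other 4, a pattern of 35.8% of tested genes. The members' share is near that background, and the comparison of 2 with 4 libraries was chosen after earlier results of these data had shown that KO 4 and WT 4 stand apart. Without KO 4 the calls of Psmb8 and Psmb9 ended (differences 0.57 and 0.95). Without WT 1, Psmb10 (0.22) and Psme2 (0.32) were called higher as well, and without WT 2, Psme1 was called lower (-0.22). The call of Psmb8 also ended with an untrended and with a robust variance.

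The partners moved the other way from Psmb8 and Psmb9. Psmb5 fell by 0.65 in KO 4 and by 0.48 in WT 4, each against numbers 1 and 2 of its genotype. Psmb6 fell by 0.91 in KO 4 and by 0.73 in WT 4, and Psmb7 by 0.47 in KO 4 and by 0.42 in WT 4. All 3 passed limma's test, with adjusted p of 0.00020 for Psmb5, 5.0e-06 for Psmb6 and 5.3e-05 for Psmb7. Both libraries numbered 4 lay below all others for each of them, a pattern of 37% of tested genes.

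The ratios were higher in the libraries numbered 4 within both genotypes, which is given as values with no test. Psmb8 to Psmb5 was 2.85-fold higher in KO 4 than in KO 1 and KO 2, and 2.07-fold higher in WT 4 than in WT 1 and WT 2. Psmb9 to Psmb6 was 7.60-fold higher within KO and 3.21-fold within WT, and Psmb10 to Psmb7 1.65-fold and 1.32-fold. Per length, Psmb8 was about level with Psmb5 in KO 4 and WT 4 and below it in the other 4 libraries. That level rests on principal transcripts of 1628 bases for Psmb8 and 899 for Psmb5, and whether these are the ones expressed was not tested. Before division by length the log2 ratio was 0.89 in KO 4, 0.90 in WT 4 and 0.35 in WT 1. It was negative in KO 1, KO 2 and WT 2.

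**Figure D4:**
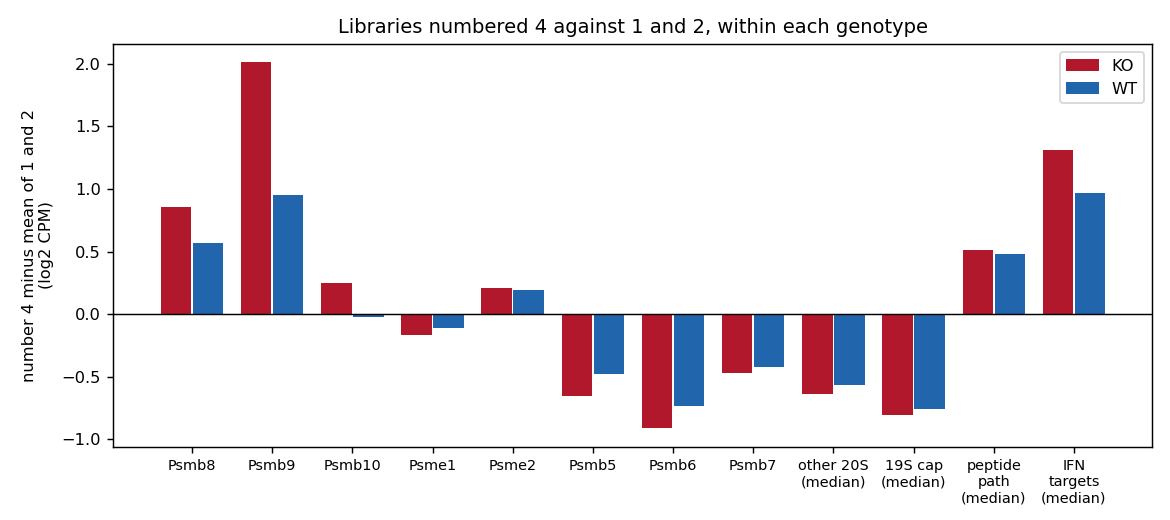
Difference between the library numbered 4 and the mean of the libraries numbered 1 and 2 within KO and within WT, in log2 CPM. Bars are single differences for the members and partners and medians of gene lists on the right. Psmb8 and Psmb9 are above 0, the constitutive subunits and the 20S and 19S lists are below 0, and Psmb10, Psme1 and Psme2 lie within 0.25 of 0.

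Members also differed between libraries of 1 genotype with the numbers 1 and 2. Psmb8 was 0.23 higher in KO 1 than in KO 2 and 0.85 higher in WT 1 than in WT 2, and Psmb9 was higher by 0.68 and 1.03. Psmb10 differed by -0.06 within KO and 0.41 within WT, Psme1 by 0.16 and 0.37, and Psme2 by 0.14 and 0.58. The difference between WT 1 and WT 2 thus exceeded the mean KO minus WT difference for each of the 5 members. WT 1 was above WT 2 in every case. Without WT 1 the median KO minus WT difference of the members was -0.22, against -0.33 with it.

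Whether the KO minus WT difference was itself unlike in number 4 was tested as an interaction in limma. For Psmb9 the term was 1.06 (SE 0.61, adjusted p = 0.9969), the largest of the 5. No member passed (0 of 5, against 0% of tested genes in either direction). At an unadjusted p under 0.05 it was 0 of 5, against 440 of 11269 tested genes. With 2 residual degrees of freedom a gene, this test is weak, and a p that misses the threshold does not show that the pairs are alike.

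In the rest of the proteasome the KO minus WT medians lay nearer to 0 than the members' -0.33, a difference that was not tested. The 11 other 20S core genes had a median KO minus WT difference of -0.09, with all 11 below WT on average, 0 past the threshold and a range from -0.16 to -0.03. Of these, 7 were lower within all 3 library numbers. Psmb1 differed by -0.10 (SE 0.10), Psmb4 by -0.14 (SE 0.17) and the α-ring gene Psma6 by -0.11 (SE 0.18). The 18 genes of the 19S cap, which recognises and unfolds tagged proteins, had a median of -0.03 and a range from -0.15 to 0.04. Its gene Psmd8 differed by -0.15 (SE 0.21), and Psmd14, the deubiquitinase of the cap, by -0.12 (SE 0.15). The 11 other activators, assembly factors and inhibitor genes had a median of -0.03, and 0 of 18 and 0 of 11 passed. Among the last, the assembly factor gene Psmg4 differed by -0.15 (SE 0.11). In the libraries numbered 4, 10 of 11 core genes and 16 of 18 cap genes were called lower, against 33.8% of all tested genes.

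Most genes that act after the proteasome in antigen presentation also had lower means in KO. Of 13 measured genes listed for peptide trimming, transport and loading, 12 were below WT on average, with a median of -0.27 and 0 past the threshold. The list also holds the regulator gene Nlrc5, which is given again with the regulators below. Within all 3 library numbers 7 of the 13 were lower, against 17% of all tested genes. Tap1, next to Psmb9, was at 2.68, 2.82 and 4.54 log2 CPM in KO 1, KO 2 and KO 4, against 3.64, 3.07 and 4.83 in WT 1, WT 2 and WT 4. Its difference was -0.96, -0.25 and -0.28 within numbers 1, 2 and 4, and in the libraries numbered 4 it was higher by 1.63 (SE 0.16, adjusted p = 2.5e-05 in limma), like Psmb9. Tap2 differed by -0.79, -0.30 and 0.04 within the same numbers. B2m, the light chain of MHC class I, differed by -0.27 (SE 0.22). Lnpep, which encodes an aminopeptidase, was the 1 gene of the list above WT, by 0.16 (SE 0.08).

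Transcripts of regulators known to induce the members were measured as well. Irf1, a transcription factor known to act on the Psmb9 promoter, was at 6.13, 6.20 and 7.22 log2 CPM in KO 1, KO 2 and KO 4, against 6.70, 6.41 and 7.24 in WT 1, WT 2 and WT 4. It differed by -0.27 (SE 0.35), and by -0.57, -0.21 and -0.02 within numbers 1, 2 and 4. Nlrc5, the transactivator of MHC class I genes, differed by -0.16 (SE 0.22). The 20 measured genes of interferon receptors, kinases and factors had a median of -0.04, with 12 below WT and 0 past the threshold. Among them Ifngr2, a subunit of the interferon gamma receptor, differed by -0.21 (SE 0.12). Protein and phosphorylation of these factors are not part of the data.

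Interferon-induced effector genes had lower means in KO, with 16 of 16 tested genes below WT on average, against 52.9% of all tested genes. Within all 3 library numbers 6 of the 16 were lower, against 17% of all tested genes. The median difference of the 16 genes was -0.46, with 0 past the threshold. Their medians within numbers 1, 2 and 4 were -0.91, -0.05 and -0.44, and those of the members were -0.66, -0.19 and -0.29. The pair numbered 1 thus differed most and the pair numbered 2 least in both. Bst2, which tethers virus particles, differed by -0.46 (SE 0.26). Cxcl10, a chemokine that draws T cells, differed by -0.65 (SE 0.43), and Gbp7, a guanylate-binding protein gene, by -0.73 (SE 0.49).

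The genes whose pattern over the 6 libraries was most like the mean of the 5 members were Lgals3bp, Herc6, Parp10, Pla1a, Parp9, Ly6e, Syt13 and Zfp93. Likeness was the root mean square distance between log2 CPM values after each gene was centred on its own mean. The 8 genes were picked as the smallest distances, 0.0760 to 0.110, where the median over all tested genes other than the members was 0.432. Their closeness and their r given below thus follow from that choice. Lgals3bp was the closest, at 5.32, 4.92 and 5.79 log2 CPM in KO 1, KO 2 and KO 4, against 5.89, 5.29 and 5.96 in WT 1, WT 2 and WT 4. Pearson's r with the mean profile was 0.962 to 0.985 for the 8 genes, as a description over 6 libraries that share their scaling. The mean profile was lowest in KO 2 (-0.56) and highest in WT 1 (0.45) and WT 4 (0.44).

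Each member is part of the mean profile, so its distance is not measured from an independent profile. Among the members, Psmb8 was nearest to the mean profile (distance 0.127), followed by Psme2 (0.174) and Psmb10 (0.212). Psme1 was farther (0.324), and its r with Psmb9 was 0.320 and with Psmb8 0.435, whereas Psmb8 and Psmb9 had r = 0.972 over 6 libraries. Psmb9 lay at 0.580, since its swings between libraries were wider than those of the others. The partners had negative r with the profile, -0.479 for Psmb5, -0.539 for Psmb6 and -0.572 for Psmb7.

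**Figure D5:**
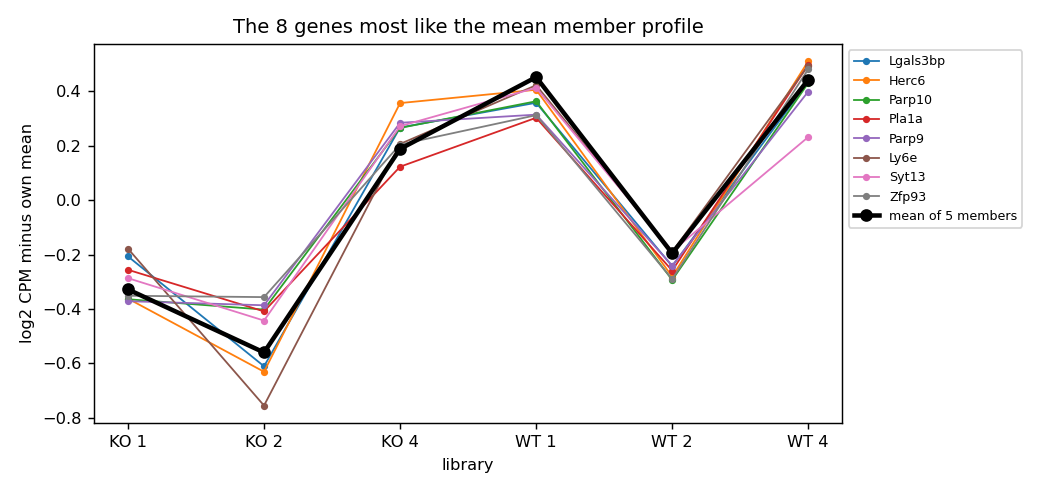
Log2 CPM of the 8 genes most like the members, each centred on its own mean, with the mean profile of the 5 members in black, by library. All 8 genes, chosen for their likeness to the black line, are lowest in KO 2, and within WT all are lowest in WT 2. The black line runs from -0.56 in KO 2 to 0.45 in WT 1.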

How the data were processed

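RNA sequencing of 3 KO and 3 WT libraries of 4T1 cell pools was analysed from the deposited log2 CPM values (log2 counts scaled to library size, with a prior). Tools named in the submitters' processing notes are edgeR, featureCounts, Subread 1.6.4, STAR 2.7.3a and Trimmomatic 0.39, with build GRCm38. No source used here states the strand setting, the annotation release or how libraries were normalized. The values were not scaled to read totals alone, since the size they imply lay below the reads of the table's genes in some libraries. It was 1.94e+07 in KO 1, against 19988206 reads, and was also below the reads in KO 2, WT 1 and WT 2. In KO 4 it was 2.08e+07, against 19560010 reads, and it was also above the reads in WT 4. Per the labels' protocols, a stranded mRNA kit was used. Where nothing says that pools came from separate cultures, p-values measure only the spread between these libraries.

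On the linear scale the values of a library rose in equal steps, and with its lowest value taken as 0 reads 100% were whole reads within 0.01, from which reads per gene were recovered. A count of 0 allows up to 0.144 to 0.173 CPM (3 reads), for counting error only. The lowest chi-square per degree of freedom between libraries was 4.88, so no library was a repeat of another.

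Differences were fitted with limma 3.58.1 in R 4.3.3, with a variance trend, on 11269 genes at log2 CPM 0 or more in at least 3 of 6 libraries (183 dropped), two-sided, with Benjamini-Hochberg adjustment over all of them and a threshold of 0.05. Fold changes include the authors' prior, which understates changes of weak genes. The KO against WT fit had no covariate, the fit for the libraries numbered 4 had genotype, and another held their interaction. The scripts were tested on simulated data. Transcript lengths came from GENCODE M21 principal transcripts and promoters from RefSeq.

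The numbers were taken to pair the libraries, since deviations of same-numbered KO and WT libraries from their genotype means correlated at 0.744, 0.784 and 0.921 for numbers 1, 2 and 4. Unlike numbers gave 0.687 (KO 1, WT 2) and 0.617 (KO 2, WT 1), nearly as high, so numbers 1 and 2 are only weakly told apart. The pairing comes from the data and not from a label. Columns 1 and 2 were matched to pools of that number, and columns 4 to their genotype only.

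Members and lists were chosen with earlier results of these data known. The text names the members, their partners, up to 3 genes of each other list with the smallest p, Tap1, Tap2, Irf1 and Nlrc5, and the 8 genes most like the members. A further gene that the rule names is not reported here. Krt14, Psme2b and Ptprc were added after values were seen. Alternatives were the replicate block, other filters, pseudocounts, scalings and variance models, a term for number 4, numbers 1 and 2 only, each library left out, limma voom on recovered reads, and log2 CPM corrected within each library for GC content and transcript length.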

Additional observations from a re-analysis of the deposited data

Results flagged for a closer look

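Some genes differed one way in the pairs numbered 1 and 2 and the other way in the pair numbered 4. Tap2 was lower in KO by -0.79 and -0.30 in numbers 1 and 2 and higher by 0.042 in number 4. Psmd10, which encodes gankyrin, an assembly factor of the 19S cap, was at -0.36, -0.12 and 0.023 in the same order. Cd68, the 1 leukocyte marker in the table, was at 0.17, 0.50 and -0.24, and Pdgfra, the 1 fibroblast marker in the table, at -0.26, -0.50 and 0.11. The interaction of genotype and number 4 in limma did not pass for any of them (adjusted p = 0.9969 each).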

How the results depend on the processing

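No alternative, including each library left out, called any of the 5 members between KO and WT, and all of them left the members' median difference between -0.47 and -0.22. Each member kept a negative difference in all of these. The replicate block, also with limma voom and with the length and GC correction, moved the genes called lower from 0 to 1, which was no member. The block changed no other KO against WT call.

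For the libraries numbered 4, 2 members were called. It was 1 with an untrended and 1 with a robust variance, and 0 to 4 with single libraries left out, where Psmb10 ranged from -0.022 without KO 4 to 0.25. The calls for the interaction were 0 in either direction, and with single libraries left out 0 to 191 higher and 0 to 78 lower. The partners' small KO minus WT differences changed sign when library numbers became unequal between genotypes. Psmb5 ranged from -0.33 to 0.044, Psmb6 from -0.33 to 0.22 and Psmb7 from -0.18 to 0.12 with single libraries left out. Psmb7 was at 0.00080 with the length and GC correction, with or without the block. The Psmb8 to Psmb5 ratio ranged from -0.82 to 0.033 with single libraries left out. edgeR and DESeq2 were not run on the recovered reads, and limma voom was the model of reads used. Psmb9, with 37 to 241 reads a library, is the member that depth limits most.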
